A study of Mus musculus with 4 samples.

Results

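The epithelial sodium channel and the genes that surround its control by aldosterone were measured across normal and ischemic mouse kidney. The set held 8 genes of the 32285 listed in the count tables, found by their symbols: the channel subunits Scnn1a, Scnn1b and Scnn1g, the mineralocorticoid receptor gene Nr3c2, the cortisol and corticosterone inactivating enzyme gene Hsd11b2, the kinase gene Sgk1, the ubiquitin ligase gene Nedd4l, and Tsc22d3, which encodes the steroid-induced protein GILZ. The samples were 4 Visium sections of the left kidney from male wild-type C57BL/6J mice aged 7 to 8 weeks, each cut at 10 µm, with the label normal on 2 of them and ischemic on the other 2. The ischemic kidneys came from mice that underwent 30 min of bilateral ischemia and were taken 24 h later, and the normal kidneys served as controls. All 4 sections lay on a single slide, and no source used here ties a section to its mouse. The p-values below therefore measure the spread between or within sections, which may be technical, and not a known spread between mice.

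Aldosterone acts in the principal cells of the connecting tubule and collecting duct, where it binds the mineralocorticoid receptor and raises sodium uptake through the channel made of the alpha, beta and gamma subunits. The kinase SGK1 is induced by the receptor and restrains NEDD4L, a ligase that marks the channel for removal from the apical membrane. Glucocorticoids bind the same receptor, and the product of Hsd11b2 protects it by converting them to inactive forms, while Sgk1 and Tsc22d3 are induced by glucocorticoids as well and are expressed in many cells outside the nephron.

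In the mouse genome (GRCm38, GENCODE M21), all 8 were protein-coding genes. The channel genes lie at chr6:125320659-125344943 (Scnn1a), chr7:121865038-121918514 (Scnn1b) and chr7:121734479-121768475 (Scnn1g), the last pair being neighbours on the plus strand. Nr3c2 lies at chr8:76899442-77245012 and Hsd11b2 at chr8:105518755-105523988. Sgk1 spans chr10:21882184-21999903, Nedd4l spans chr18:64887705-65217828 and Tsc22d3 lies on the minus strand at chrX:140539528-140600659.

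The sections held 2401 to 2682 tissue spots, 10312 in all, with 25957128 to 44528078 UMIs each and a median of 8656 to 16162.5 UMIs per spot. A spot is a small region that covers several cells, so a level describes the tissue under it, and fewer cells of a type and less RNA per cell cannot be told apart. The tubule injury genes Havcr1 and Lcn2 were higher in ischemic sections by 9.64 ± 0.28 and 8.78 ± 0.27 (log2 ± SE, n = 2 sections per condition), in the direction of the labels. Differences were tested with edgeR's quasi-likelihood test on summed UMI counts, adjusted over all genes tested by Benjamini-Hochberg, and called at an adjusted p under 0.05. Levels are CPM, counts scaled to a common library total, after TMM scaling unless called unscaled CPM, and a range in brackets is the estimate ± 2 SE. The scale matters here, since with library totals alone the median gene stood 0.31 higher (log2) in ischemic sections, against 0.04 with TMM.

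In the normal kidney, the channel subunits were cortical genes relative to the outer stripe of the outer medulla. Each spot had been given to 1 of 5 zones by marker genes of the spot and its neighbours. Zones were compared with cortex with section as a block, so those p-values measure the spread within sections. Ischemic and normal zones, given further below, were compared in 1 model of all zones without a section term. Zones of the same section thus counted as independent there, which can make those p-values too small. Scnn1b, the beta subunit, stood at 57.7 and 62.0 CPM in the cortex of normal sections 1 and 2 and at 20.4 and 17.7 CPM in their outer stripe, a logFC of -1.64 ± 0.21 (edgeR padj = 7.2e-06). Scnn1g, the gamma subunit, fell from 20.8 and 33.0 to 6.80 and 8.95 CPM (logFC = -1.75 ± 0.19, edgeR padj = 5.6e-07). Scnn1a, the alpha subunit, differed less, with 44.9 and 45 CPM in the cortex and 33.1 and 33.3 CPM in the outer stripe (logFC = -0.44 ± 0.12, edgeR padj = 0.0091). In all 3 subunits every normal outer stripe value lay below every normal cortex value, though the share of all genes so separated was not counted.

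Between these zones Hsd11b2 followed the beta and gamma subunits, with 89.5 and 107 CPM in normal cortex and 47.4 and 49.8 CPM in normal outer stripe (logFC = -1.003 ± 0.19, edgeR padj = 4.3e-04). In the normal inner stripe it stood at 94.7 and 123 CPM, where Scnn1b stood at 32.4 and 40.8 CPM. Inner stripe was not tested against cortex. Nedd4l ran the other way between cortex and outer stripe, with 50.7 and 47.7 CPM in the cortex and 79.9 and 74.1 CPM in the outer stripe (logFC = 0.65 ± 0.12, edgeR padj = 5.6e-04). Nr3c2 (logFC = -0.50 ± 0.26), Sgk1 (-0.17 ± 0.15) and Tsc22d3 (0.02 ± 0.10) did not pass the test. Thus 5 of the 8 were called between outer stripe and cortex in the normal sections, where 22.8% of all genes tested were called.

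The same comparison within the ischemic sections called 5 of the 8 as well, against 36.2% of all genes. Scnn1b (logFC = -1.94 ± 0.22), Scnn1g (-2.36 ± 0.21), Scnn1a (-1.03 ± 0.14) and Hsd11b2 (-1.88 ± 0.22) were lower in the outer stripe, with adjusted p-values (edgeR) of 6.7e-06 or less. Nedd4l was no longer called (0.10 ± 0.12), and Tsc22d3 was higher in the outer stripe by 0.40 ± 0.10 (edgeR padj = 0.0047, lost without ischemic section 1 at padj = 0.14 and without ischemic section 2 at padj = 0.20). The zone difference itself changed with ischemia for Scnn1a (by -0.59 ± 0.18, padj = 0.024), Hsd11b2 (-0.88 ± 0.29, padj = 0.038) and Nedd4l (-0.54 ± 0.18, padj = 0.032) in edgeR's test of the interaction. These were 3 of 8, against 21.5% of all genes, and all 3 calls were lost with DESeq2 (padj = 0.09, 0.28 and 0.16) and without either ischemic section.

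Over whole sections, ischemia was accompanied by lower Hsd11b2, Scnn1a, Nr3c2 and Tsc22d3, while Scnn1b, Scnn1g, Sgk1 and Nedd4l did not pass the test. These 4 of 8 members compare with 60.6% of all genes called, so the share of members that changed was not above that of the transcriptome. No member was called higher.

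Scnn1a measured 34.8 CPM in both normal sections and 23.9 and 25.9 CPM in the ischemic sections. The groups did not overlap, and the logFC was -0.48 ± 0.09 (edgeR padj = 0.0017), or 1.40-fold lower. Scnn1b measured 35.5 and 37.4 CPM in normal sections and 34.8 and 34.3 CPM in ischemic sections. Its difference was small in either direction (logFC = -0.08 ± 0.09, range -0.26 to 0.10, edgeR padj = 0.48). Scnn1g measured 12.6 and 20.6 CPM against 13.6 and 11.8 CPM, so that normal section 1 lay among the ischemic values (logFC = -0.37 ± 0.20, range -0.78 to 0.03, edgeR padj = 0.14). Without normal section 1, Scnn1g was called lower at -0.68 (edgeR padj = 5.1e-10).

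Hsd11b2 showed the largest difference among the members. It measured 64.0 and 74.1 CPM in normal sections and 32.9 and 31.7 CPM in ischemic sections, 2.14-fold lower (logFC = -1.10 ± 0.11, edgeR padj = 2.8e-05). The call held without each section in turn (-1.19 to -1.02) and with library totals alone (-0.84, padj = 0.0010). Nr3c2, the receptor gene, was sparse, with 155 counts at most in any section. It measured 4.09 and 5.62 CPM in normal and 2.89 and 3.35 CPM in ischemic sections (logFC = -0.63 ± 0.21, edgeR padj = 0.029). The Nr3c2 call was lost without normal section 2 (-0.43, padj = 0.051), without ischemic section 1 (-0.51, padj = 0.19) and without ischemic section 2 (-0.73, padj = 0.066).

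Sgk1 measured 84.0 and 97.9 CPM in normal and 74.8 and 80.9 CPM in ischemic sections, without overlap but below the threshold (logFC = -0.22 ± 0.11, range -0.45 to 0.01, edgeR padj = 0.12). Without normal section 1 it was called lower at -0.32 (edgeR padj = 1.5e-04). Tsc22d3 measured 28.3 and 29.6 CPM in normal and 21.7 and 22.8 CPM in ischemic sections (logFC = -0.38 ± 0.09, edgeR padj = 0.0062). Nedd4l was at 56.8 and 52.5 CPM in normal and 60.2 and 57.9 CPM in ischemic sections (logFC = 0.11 ± 0.10, edgeR padj = 0.35), and without normal section 1 it was called higher at 0.18 (padj = 0.0496). Without ischemic section 1, the calls of Scnn1a (-0.41, padj = 0.064) and Tsc22d3 (-0.33, padj = 0.13) were lost, and without ischemic section 2 that of Tsc22d3 (-0.40, padj = 0.066).

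On library totals alone, Scnn1a (-0.21, padj = 0.23), Nr3c2 (-0.38, padj = 0.32) and Tsc22d3 (-0.11, padj = 0.56) kept their sign without passing edgeR's test, Nedd4l was called higher (0.38, padj = 0.014), and Scnn1b (0.19) and Sgk1 (0.03) changed sign without a call. Of the members, the fall of Hsd11b2 was thus the call in whole sections that did not depend on the scale.

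**Figure D1:**
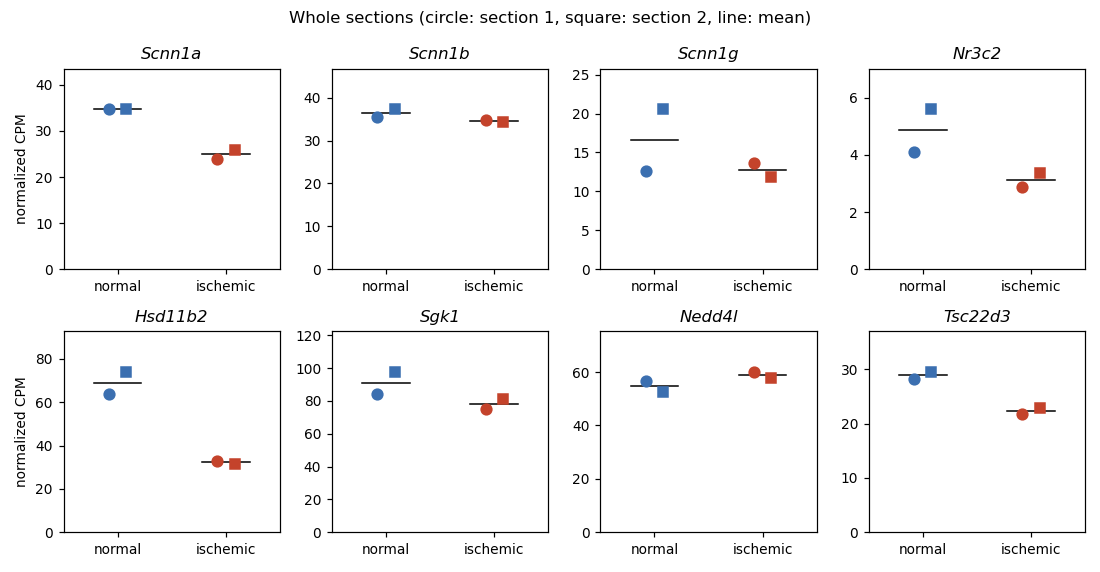
Level of each gene in the 4 whole sections, as TMM-scaled CPM on an axis that starts at 0, with a circle for section 1, a square for section 2 and a line at the mean of each condition. Hsd11b2 sits at 64.0 and 74.1 CPM in normal and at 32.9 and 31.7 CPM in ischemic sections, while Scnn1b keeps between 34.3 and 37.4 CPM.

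The zones were not of equal size in both conditions. Inner stripe took 14.1 and 12.8% of normal spots against 17.9 and 20.9% of ischemic ones. Inner medulla took 5.12 and 8.35% against 12.2 and 11.5%, while cortex and outer stripe were smaller after ischemia. Without Aqp2 and Fxyd4 as zone genes, 97.0 and 93.8% of normal inner medulla spots stayed, against 70.5 and 71.3% of ischemic ones. The pelvis took spots in the top 5% of their section by urothelium genes (listed below), so its share was set beforehand in both conditions. With zones set without neighbours, 66.4 and 63.0% of normal pelvis spots stayed, against 28.3 and 28.5% of ischemic ones. Whether a zone covered like tissue in both conditions was not tested. Within zones, Scnn1a was called lower in cortex and outer stripe, and whether it differed there from Scnn1b and Scnn1g was not tested. In the cortex, Scnn1a went from 44.9 and 45 to 31.1 CPM in both ischemic sections (logFC = -0.53 ± 0.14, edgeR padj = 0.0061). In the outer stripe, where proximal straight tubules lie, it went from 33.1 and 33.3 to 15.8 and 14.6 CPM, 2.18-fold lower (logFC = -1.13 ± 0.16, edgeR padj = 7.4e-06). In the inner stripe (-0.28 ± 0.16), inner medulla (0.43 ± 0.25) and pelvis (0.26 ± 0.24) the Scnn1a difference did not pass the test. The outer stripe call held on library totals alone (-0.73, padj = 0.014), and the cortex call did not (-0.32, padj = 0.28). The cortex call was also lost without ischemic section 1 (-0.52, padj = 0.11) and without ischemic section 2 (-0.53, padj = 0.10).

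Scnn1b and Scnn1g were called in none of the 5 zones. The Scnn1b differences ran from -0.35 ± 0.29 in the outer stripe to 0.61 ± 0.39 in the pelvis, and those of Scnn1g from -0.74 ± 0.41 in the outer stripe to -0.09 ± 0.58 in the inner medulla. Scnn1g rested on 1 section in several zones, since without normal section 1 it was called lower in cortex (-0.54), outer stripe (-1.05), inner stripe (-1.02) and pelvis (-1.07). Inner medullary Scnn1b stood at 13.2 CPM in normal section 1 and at 49.9 CPM in normal section 2, with 36.2 and 53.6 CPM in the ischemic sections, and without normal section 2 it was called higher at 1.75 (edgeR padj = 0.0028).

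Hsd11b2 was lower in 4 of the 5 zones. It went from 89.5 and 107 to 60.1 and 56.3 CPM in the cortex (logFC = -0.75 ± 0.27, edgeR padj = 0.030). In the outer stripe it went from 47.4 and 49.8 to 18.8 and 12.5 CPM (-1.62 ± 0.30, edgeR padj = 1.3e-04), and in the inner stripe from 94.7 and 123 to 22.4 and 32.0 CPM (-1.99 ± 0.30, edgeR padj = 2.3e-05). The inner stripe fall was 3.98-fold, with the groups far apart. The inner medullary call (-0.97 ± 0.37, edgeR padj = 0.048) had overlapping groups, at 23.6 and 80.8 against 25.5 and 31.7 CPM, and turned to 0.27 without normal section 2. It was also lost with DESeq2 (-0.91, padj = 0.081), on library totals alone (-0.83, padj = 0.18) and without ischemic section 1 (-0.77, padj = 0.30) or 2 (-1.09, padj = 0.14). In the pelvis Hsd11b2 was low in all sections, from 16.7 to 39.2 CPM, and was not called. The cortex call was lost with DESeq2 (-0.83, padj = 0.081), on library totals alone (-0.54, padj = 0.25), without ischemic section 1 (-0.79, padj = 0.21) and without ischemic section 2 (-0.70, padj = 0.27), while the 2 stripes kept theirs under each of these.

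Nr3c2 and Nedd4l were called in no zone, with Nr3c2 close to the threshold in cortex (-0.78 ± 0.31, edgeR padj = 0.053) and outer stripe (-0.84 ± 0.37, edgeR padj = 0.058). Without normal section 1, Nr3c2 was called lower in cortex (-0.90, padj = 0.015) and outer stripe (-1.31, padj = 0.0026), and without normal section 2 in cortex (-0.75, padj = 0.027). Nedd4l was called in both zones without either normal section, higher in cortex (0.27 and 0.26) and lower in outer stripe (-0.30 in both), and without normal section 2 also in inner stripe (-0.27), inner medulla (0.60) and pelvis (0.59). Over all genes tested, the share called was 40.1% for cortex, 56.9% for outer stripe, 48.2% for inner stripe, 35.1% for inner medulla and 25.2% for pelvis. The members called were 3, 2, 1, 3 and 2 of 8 in these zones, every one of them lower.

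**Figure D2:**
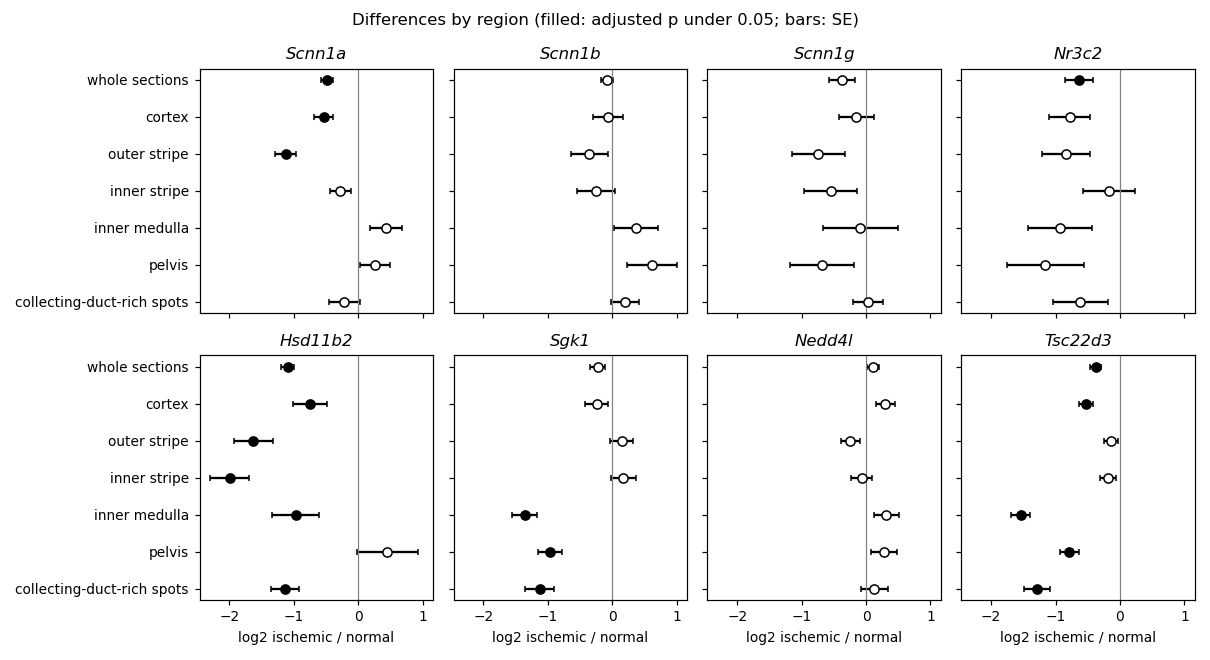
Difference between ischemic and normal sections for each gene (x axis, log2 ratio) in whole sections, 5 zones and the spots richest in collecting-duct genes (y axis), with bars for the SE and filled circles where the edgeR adjusted p was under 0.05. Hsd11b2 is low from cortex to inner medulla, Scnn1a reaches -1.13 in the outer stripe, and Sgk1 and Tsc22d3 are near 0 in the stripes and low in inner medulla, pelvis and collecting-duct-rich spots.

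To see the members where principal cell genes were highest, the 10% of spots with the highest summed CPM of Aqp2, Aqp3, Aqp4, Avpr2 and Fxyd4 were taken from each section, 240 to 268 spots. They held 16.3 to 28.3% of all Scnn1b counts and 20.4 to 30.7% of all Hsd11b2 counts of their section. Inner medulla made up 24.8 and 50.7% of the normal sets against 30.8 and 34.0% of the ischemic ones. Pelvis made up 26.7 and 16.4% against 11.7 and 18.9%, and cortex 11.8 and 4.85% against 15.8 and 6.18%. Hsd11b2 measured 306 and 235 CPM there in normal and 134 and 112 CPM in ischemic sections (logFC = -1.14 ± 0.22, edgeR padj = 0.0067). Scnn1b was at 134 and 94.6 against 130 and 133 CPM (0.20 ± 0.22, range -0.24 to 0.64), and Scnn1g at 41.3 and 49.0 against 53.5 and 37.8 CPM (0.03 ± 0.23, range -0.43 to 0.49). Scnn1a was at 67.5 and 45.04 against 54.3 and 43.0 CPM (-0.22 ± 0.24, range -0.70 to 0.27). The genes that picked these spots were lower in them as a sum, with 5365 and 7756 unscaled CPM in normal sections against 2836 and 4614 after ischemia. Singly, Avpr2 differed by -1.30, Fxyd4 by -0.93 and Aqp2 by -0.88, against -0.24 for Aqp3 and 0.006 for Aqp4. Since these genes chose the spots, their values there are no result. Their part in the Hsd11b2 difference was not tested. Sgk1 (-1.13 ± 0.22, edgeR padj = 0.0074) and Tsc22d3 (-1.29 ± 0.20, edgeR padj = 0.0026) were the other members called, 3 of 8 against 25.1% of all genes.

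The Hsd11b2 call in these spots was lost without ischemic section 1 (-1.26, padj = 0.067), without ischemic section 2 (-0.99, padj = 0.077) and with the top 5% of spots in place of 10% (-0.23, padj = 0.49). With that narrower choice Scnn1b was called higher (0.99, padj = 0.0096), and with the top 20% Scnn1a (-0.48, padj = 0.048) and Nr3c2 (-1.01, padj = 0.038) were called lower. Scnn1b was also called higher when spots were picked by the genes of a spot and its neighbours (0.67, padj = 0.049). The Sgk1 call was lost without ischemic section 1 (-0.89, padj = 0.15). Set against the principal cell genes of the same whole section, Hsd11b2 gave 99.9 and 96.1 counts per 1000 counts of the 7-gene principal cell list in normal sections and 71.5 and 50.8 in ischemic sections. The same ratio for Scnn1b was 55.5 and 48.5 against 75.6 and 55.0. The groups overlapped on it for Scnn1a (54.3 and 45.2 against 52.1 and 41.5) and Tsc22d3 (44.2 and 38.4 against 47.2 and 36.6). They also overlapped for Scnn1g (19.7 and 26.7 against 29.6 and 18.9) and Sgk1 (131 and 127 against 163 and 130). Nr3c2 gave 6.39 and 7.28 against 6.28 and 5.37, and Nedd4l 88.7 and 68.1 against 131 and 92.8. These ratios were not tested.

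Sgk1 and Tsc22d3 are textbook targets of steroid receptors, so their promoter sequences are shown. Both were lower in inner medulla, pelvis and collecting-duct-rich spots, and any part of steroid receptors in this was not tested. RefSeq promoter windows (GRCm38.p6), from 250 bases before to 50 after a start, were matched for Scnn1b, Scnn1g, Nr3c2, Sgk1 and Tsc22d3, 12 windows in all. The hexamer AGAACA or its reverse complement TGTTCT was searched on both strands, and 19% of the 32851 windows in the table held at least 1. It was present in 3 of 6 Sgk1 windows, in 1 of 3 Tsc22d3 windows and in none of the windows of Scnn1b, Scnn1g and Nr3c2. AGAACA followed after 3 bases by TGTTCT, the palindrome bound by steroid receptors, was found in 1 Sgk1 window, beginning 189 bases before the start at chr10:21993701-21993715, and in 3 windows (0.00913%) of the whole table. The 250 bases before that Sgk1 start (chr10:21993640-21993889, plus strand) and before the Tsc22d3 start that has the hexamer (chrX:140600523-140600772, minus strand) read as follows, with the hexamers in capitals. A match describes the letters and was not tested for binding.
Sgk1: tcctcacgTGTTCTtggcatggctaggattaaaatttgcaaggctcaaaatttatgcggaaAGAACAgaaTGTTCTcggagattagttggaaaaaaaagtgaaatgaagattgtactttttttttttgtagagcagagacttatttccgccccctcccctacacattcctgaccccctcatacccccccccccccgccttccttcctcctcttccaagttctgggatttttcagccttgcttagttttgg
Tsc22d3: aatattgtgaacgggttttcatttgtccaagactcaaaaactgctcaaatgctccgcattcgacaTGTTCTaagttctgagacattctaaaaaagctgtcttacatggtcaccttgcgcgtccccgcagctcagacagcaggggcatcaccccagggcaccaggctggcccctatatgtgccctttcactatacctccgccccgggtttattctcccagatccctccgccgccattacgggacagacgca

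In normal sections both genes were highest in the spots given to inner medulla and pelvis. Many of those spots also held urothelium, adipocyte, T cell or vascular smooth muscle genes, as given below. Sgk1 measured 242 and 222 CPM in the inner medulla and 345 and 268 CPM in the pelvis, against 85.3 and 95.6 CPM in the cortex, and inner medulla exceeded cortex by 1.35 ± 0.16 (edgeR padj = 1.1e-06). Tsc22d3 measured 67.0 and 65.9 CPM in the inner medulla, 71.6 and 59.0 CPM in the pelvis and 28.5 and 27.9 CPM in the cortex (inner medulla over cortex 1.24 ± 0.12, edgeR padj = 1.2e-07). In ischemic sections these differences were 0.23 ± 0.16 for Sgk1 and 0.21 ± 0.13 for Tsc22d3, neither of which passed the test.

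Ischemic inner medulla held 76.1 and 105 CPM of Sgk1 and 22.02 and 23.6 CPM of Tsc22d3, lower than normal by 1.36 ± 0.19 and 1.54 ± 0.14 on the log2 scale (edgeR padj = 1.9e-05 and 1.7e-07). In the pelvis Sgk1 was at 143 and 170 CPM (logFC = -0.97 ± 0.19, edgeR padj = 9.5e-04) and Tsc22d3 at 38.9 and 36.6 CPM (-0.78 ± 0.15, edgeR padj = 6.3e-04). No normal value overlapped an ischemic one in these regions. The pelvic call of Sgk1 was lost without ischemic section 1 (-0.84, padj = 0.060) and that of Tsc22d3 without ischemic section 2 (-0.74, padj = 0.059). In the cortex Tsc22d3 was lower by 0.52 ± 0.11 (edgeR padj = 8.4e-04, lost without ischemic section 1 at padj = 0.080, without ischemic section 2 at padj = 0.070 and on library totals alone at padj = 0.14), and Sgk1 was not called (-0.24 ± 0.18). In the outer and inner stripe neither was called, with Sgk1 at 0.15 ± 0.18 and 0.18 ± 0.19 and Tsc22d3 at -0.13 ± 0.11 and -0.19 ± 0.13. On library totals alone Sgk1 was called higher in the outer stripe (0.54, padj = 0.040).

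The difference between inner medulla and cortex changed with ischemia by -1.12 ± 0.23 for Sgk1 (edgeR padj = 0.0020) and by -1.03 ± 0.18 for Tsc22d3 (edgeR padj = 4.6e-04). It changed for Scnn1a as well, by 0.96 ± 0.26 (edgeR padj = 0.019), from -1.16 ± 0.20 in normal to -0.20 ± 0.16 in ischemic sections. These 3 of 8 compare with 13% of all genes. Within normal sections 6 of 8 members differed between inner medulla and cortex (40.2% of all genes) and within ischemic sections 2 of 8, Scnn1g and Hsd11b2 (45.6% of all genes). For the channel and Hsd11b2 this zone was not stable, because with zones set from each spot without its neighbours the normal difference turned from -0.80 to 0.71 for Scnn1b, from -1.27 to 0.22 for Scnn1g and from -0.84 to 1.16 for Hsd11b2. Without ischemic section 1 the changes of Sgk1 (-0.98, padj = 0.068) and Tsc22d3 (-0.97, padj = 0.055) lost their calls, and without ischemic section 2 that of Scnn1a (0.66, padj = 0.30). Within ischemic sections, Scnn1g (padj = 0.082) and Hsd11b2 (padj = 0.12) were not called without ischemic section 1.

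The normal and ischemic sections differed in the tissue around the pelvis. In the inner medulla, the summed unscaled CPM of 6 urothelium genes (Upk1a, Upk1b, Upk2, Upk3a, Krt5 and Psca) was 916 and 2355 in normal sections, against 6.47 and 63.6 after ischemia. That of 4 adipocyte genes (Adipoq, Plin1, Cfd and Fabp4) was 5894 and 1132 against 334 and 272. The 5 T cell genes (Cd3e, Cd3d, Cd3g, Trac and Trbc2) summed to 30.1 and 102 against 4.19 and 3.41, with 3 and 4 of the 5 at 0 in the ischemic sections, and the 4 vascular smooth muscle genes to 2064 and 472 against 396 and 319. In the pelvis the urothelium sum was 5215 and 6336 against 766 and 1116. Over whole sections, 5 of 6 urothelium, 4 of 4 adipocyte and 5 of 5 T cell genes were called lower in ischemia.

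**Figure D3:**
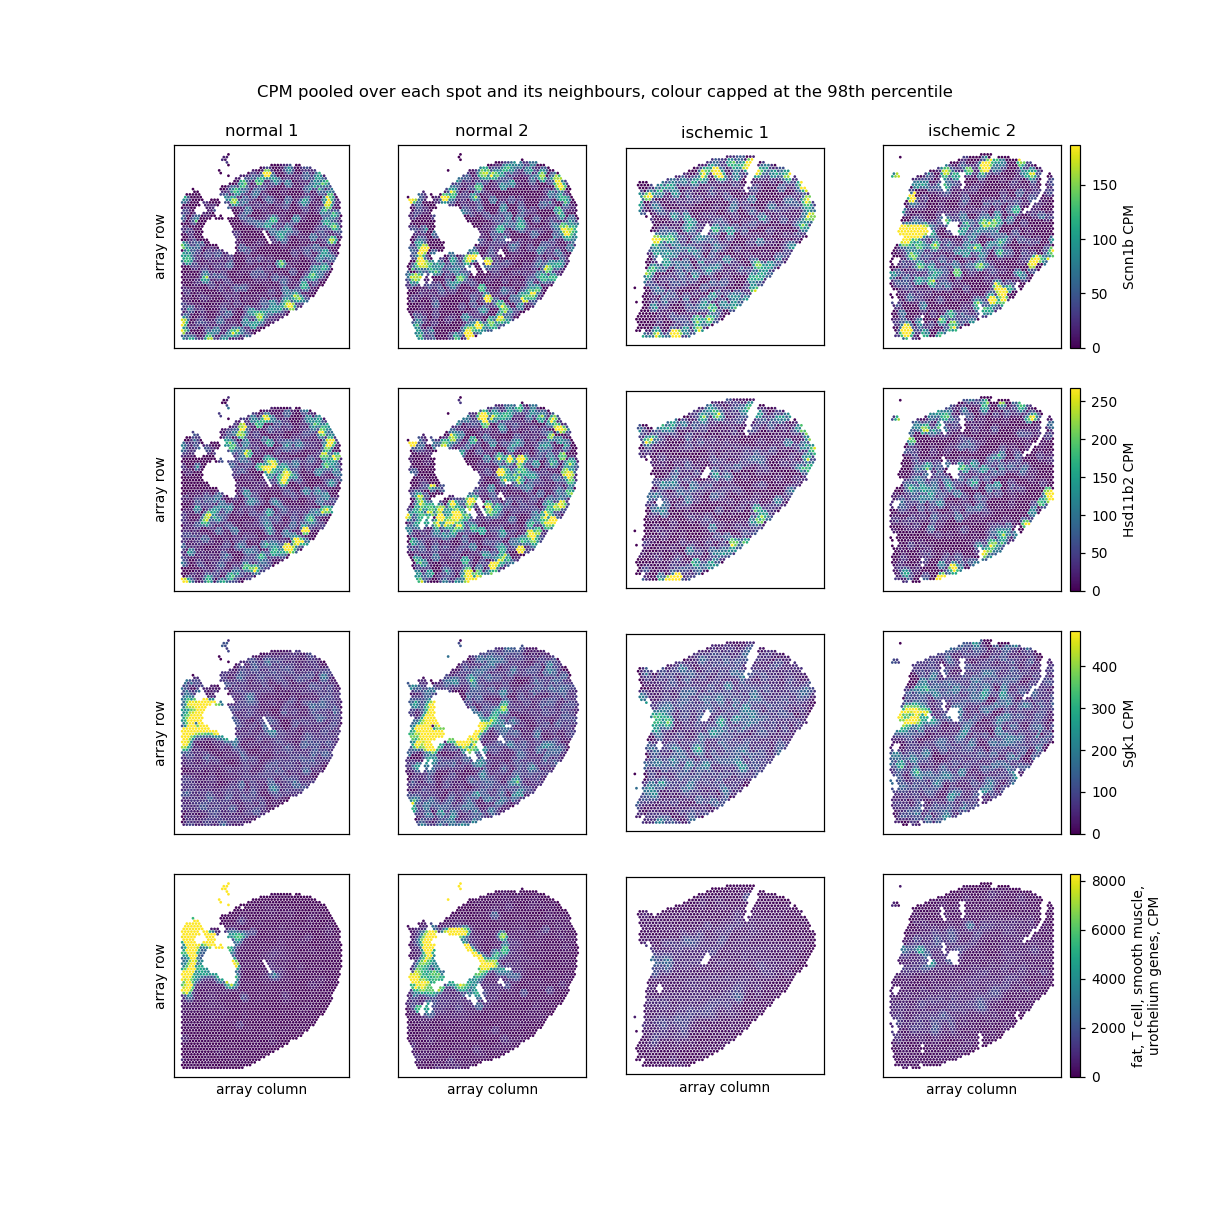
Unscaled CPM of Scnn1b, Hsd11b2, Sgk1 and the summed urothelium, adipocyte, T cell and vascular smooth muscle genes (rows, colour from 0) at each spot's array column and row (x and y axes), pooled over the spot and its neighbours, in the 4 sections (columns). Sgk1 is bright around the opening at the pelvis of both normal sections, where the 4 lists are bright too. Neither is as bright in the ischemic sections. Scnn1b and Hsd11b2 spot the cortex. Hsd11b2 also stands at 77.8 and 136 unscaled CPM in normal inner stripe, against 66.5 and 92.2 in normal cortex.

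Sgk1 and Tsc22d3 were also read after leaving out every spot with 1000 CPM or more of the 4 lists, an alternative chosen after seeing the data. In the collecting-duct-rich set this left 127 and 98 normal spots against 199 and 210 ischemic ones. More normal than ischemic spots were thus left out, there and in the inner medulla, so the spots compared may be unlike tissue. What the Sgk1 and Tsc22d3 falls rested on was not tested. The spots left out had held 81.6 and 87.7% of the Sgk1 counts of the set in normal sections, at 552 and 429 unscaled CPM. In the spots that stayed, Sgk1 was at 68.1 and 96.4 unscaled CPM in normal and at 93.1 and 120 unscaled CPM in ischemic sections, so that the call was lost and the sign turned (logFC = 0.24, edgeR padj = 0.47). Tsc22d3 was at 29.5 and 46.6 against 23.2 and 28.0 unscaled CPM (-0.67, edgeR padj = 0.080), and stayed called at a limit of 2000 CPM (-0.75, padj = 0.034). Hsd11b2, by contrast, was at 402 and 485 against 147 and 117 unscaled CPM, a logFC of -1.89 (edgeR padj = 5.1e-04), and Scnn1a was now called lower (-0.996, padj = 0.018).

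In the inner medulla the same step left 28 and 55 of 134 and 224 normal spots, against 224 and 241 of 292 and 300 ischemic ones. Sgk1 then measured 56.0 and 75.0 unscaled CPM in normal and 83.4 and 127 unscaled CPM in ischemic sections (logFC = 0.45, edgeR padj = 0.28), again with the sign turned. Tsc22d3 kept its call (-1.10, edgeR padj = 0.0065) on 25.4 and 69.0 against 23.5 and 26.5 unscaled CPM, where normal section 1 lay among the ischemic values. The normal difference of Sgk1 between inner medulla and cortex became -0.48 (padj = 0.34) and its change with ischemia 0.72 (padj = 0.22). For Tsc22d3 these became 0.70 (padj = 0.11) and -0.57 (padj = 0.31). In the pelvis, where too few spots stayed below 1000 CPM, a limit of 2000 CPM gave 0.80 for Sgk1 (padj = 0.17) and 0.77 for Tsc22d3 (padj = 0.30), both with the sign turned. The pelvis had itself been set by the urothelium genes, so the step took out the spots highest in its own markers. These pelvic values therefore cannot tell what the falls there rested on. Over whole sections, with these spots left out, Hsd11b2 (-1.10), Scnn1a (-0.57), Nr3c2 (-0.53) and Tsc22d3 (-0.38) stayed called, with edgeR adjusted p-values up to 0.027, and Sgk1 stood at -0.05 (padj = 0.63).

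**Figure D4:**
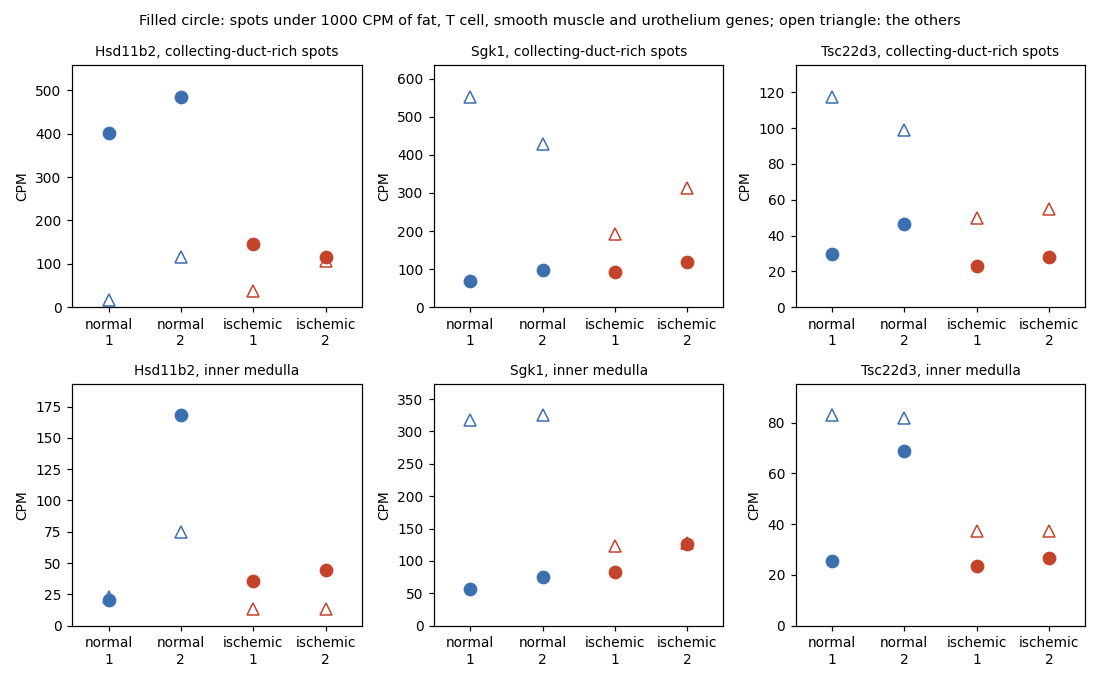
Unscaled CPM (y axis, from 0) of Hsd11b2, Sgk1 and Tsc22d3 by section (x axis) in collecting-duct-rich and inner medulla spots, split into spots under 1000 CPM of urothelium, adipocyte, T cell and vascular smooth muscle genes (filled circles) and the others (open triangles). For Sgk1 the normal triangles reach 552 and 429 CPM in the collecting-duct-rich set while all circles lie between 68.1 and 120 CPM.

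The share of spots with at least 1 count, after thinning each spot to 2000 UMIs (48 to 150 shallower spots per section left out), followed the levels for Hsd11b2. It was 10.4% (95% exact interval 9.24 to 11.6%) and 11.7% (10.4 to 13.0%) in normal and 6.57% (5.60 to 7.65%) and 6.82% (5.86 to 7.88%) in ischemic sections, against 32.8, 30.9, 25.2 and 20.5% without thinning. Nedd4l was found in 8.76 and 9.40% of normal and 13.1 and 11.2% of ischemic spots, and Scnn1b in 4.95 and 7.27% against 6.49 and 7.50%. Spots thinned to equal totals carry no TMM scaling, and on library totals alone Nedd4l was called higher in whole sections (0.38, edgeR padj = 0.014). Sgk1, in 13.0 and 16.5% against 15.3 and 15.8% of spots, and Tsc22d3, in 4.36 and 6.79% against 4.78 and 5.98%, had ischemic shares within the normal range. The intervals cover counting error, and RNA that moves between spots was not tested.

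Genes that act on the channel and its control were read from 5 lists, in whole sections, where 60.6% of all genes were called. Of 7 proteases and inhibitors that process the channel, 4 were higher, 1 was lower and 2 were not called. The protease gene St14 (matriptase) was higher by 1.78 ± 0.20 and the inhibitor gene Serpine2 by 1.38 ± 0.10, while Prss8 (prostasin, a channel-activating protease) was lower by 1.51 ± 0.15 on the log2 scale. Of 12 kinases, ligases and scaffolds, 5 were higher and 6 lower. Usp2, a deubiquitinase, fell by 2.30 ± 0.12, and Ndrg1 and Ndrg2, substrates of SGK1, fell by 1.58 ± 0.17 and 1.54 ± 0.10.

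Of 7 genes for steroid receptors, chaperones and enzymes, 4 were higher and 2 lower. Hsd11b1, whose product regenerates active glucocorticoid, fell by 1.63 ± 0.19, H6pd, which supplies its cofactor, rose by 1.45 ± 0.11, and the chaperone gene Fkbp5 rose by 1.00 ± 0.09. The glucocorticoid receptor gene Nr3c1 measured -0.11 ± 0.11 and was not called. Of 9 steroid-induced genes outside the members, 4 were higher, with Zbtb16 at 2.52 ± 0.47, Edn1 at 2.17 ± 0.23 and Fkbp5 as above, 2 were lower, Klf9 at -0.87 ± 0.11 and Atp1b1 at -0.49 ± 0.15, and 3 were not called. The list therefore moved in both directions, with a median of 0.17. All 5 tested of 6 potassium channel and ion transporter genes were lower (Kcnma1 was not tested). Slc26a4 (pendrin) fell by 1.58 ± 0.15, the potassium channel gene Kcnj1 (ROMK) by 1.37 ± 0.10, and the thiazide-sensitive cotransporter gene Slc12a3 had a logFC of -1.251 ± 0.13.

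Among the tubule segments that express the channel, 4 of 5 connecting tubule genes were lower (Calb1 by 3.21 ± 0.16) and 2 of 7 principal cell genes were, Avpr2 at -1.03 ± 0.11 and Aqp4 at -0.62 ± 0.24, with Elf5 higher at 0.89 ± 0.21. The other 4 principal cell genes, Aqp2 (-0.35 ± 0.18) among them, were not called. The connecting tubule list summed to 14529 and 18224 unscaled CPM in normal and to 6116 and 5709 in ischemic cortex, and its part in the lower Scnn1a and Hsd11b2 of the cortex was not tested. Of 7 intercalated cell genes 6 were lower. All 5 neutrophil genes and all 4 injured tubule genes were higher, and all 4 thick ascending limb and 5 proximal tubule genes were lower, as were 2 of 3 distal convoluted tubule genes. Of 6 macrophage and monocyte genes 1 was higher and 3 were lower, of 5 endothelium genes 2 were higher and 1 was lower, and the 4 vascular smooth muscle genes split evenly.

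The spatial pattern of each gene was compared with 8630 other genes by Spearman correlation across spots, with each spot's CPM pooled with those around it, over 2401 to 2682 spots per section that share their library and depth. Scnn1b was most like Atp6v1g3, an intercalated cell proton pump gene, in normal sections (mean rho 0.68) and in ischemic sections (0.61), and Scnn1g was as well (0.55 and 0.46). Hsd11b2 was most like Rhcg, an ammonia transporter gene (0.70), in normal and Atp6v1g3 (0.55) in ischemic sections. Scnn1a was most like Kcnj1 (0.53), Defb1 (0.51) and Tmem213 (0.50) in normal sections and Ly6a (0.47), Aif1l (0.45) and Wfdc2 (0.44) in ischemic ones. Its correlation with the connecting tubule list was 0.39 and 0.28 in normal sections, against -0.02 and -0.12 after ischemia.

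Sgk1 was most like Cd9 (0.42), Spp1 (0.39) and Ctsd (0.39) in normal and Tmsb4x (0.34), Emcn (0.31) and Actb (0.30) in ischemic sections, none of them specific to the collecting duct. Tsc22d3 was most like Tmsb4x (0.35), Tmsb10 (0.35) and Bcam (0.33) in normal sections, and Nedd4l was most like Kcnk1 (0.39), Slc12a1 (0.36) and Irx1 (0.35). Sgk1 and Scnn1b, kinase and target of the same pathway, had correlations of 0.13 and 0.16 in normal sections, against -0.04 and 0.03 after ischemia. Scnn1b and Hsd11b2 had 0.59 and 0.56 in normal sections, against 0.52 and 0.50 after ischemia. Nr3c2 had too few counts for this comparison.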

How the data were processed

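Visium spatial transcriptomes were measured in 2 normal and 2 ischemic kidney sections. The deposited matrices hold UMI counts per gene and tissue spot, which the authors made with Space Ranger 1.3.0 on the mm10 mouse genome, without further normalization. All spots in the deposited matrices were used, and counts were summed per section, per zone and per collecting-duct-rich spot set. Sums were tested with the quasi-likelihood test of edgeR 4.0.16 (TMM factors, filterByExpr, Benjamini-Hochberg threshold 0.05) over all genes, with section as a block for zone differences, and the SE is the log2 difference over the root of F. The test scripts were tested on simulated data.

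Named genes were the 8 members, Havcr1 and Lcn2, the 3 genes most like each member in spatial pattern, and up to 3 genes per list with the largest change past the threshold in whole sections. Nr3c1, Klf9, Atp1b1, Aqp2, Aqp3 and Fxyd4 were named after their values were seen. The members and the lists were chosen with earlier results of these data known. The lists covered channel proteases and inhibitors, kinases, ligases and scaffolds, and steroid receptors, chaperones and enzymes. They also covered steroid-induced genes, potassium channels and ion transporters, and cell type markers. Alternatives were DESeq2 1.42.0, RLE factors, no filter, each section left out, the replicate number as a block, other zone and spot choices and separate fits. Library totals alone and leaving out spots with 1000 or 2000 CPM of other-tissue genes were chosen after seeing the data. Total counts were 25957128 to 44528078 per section, and intervals and shares cover counting error only.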

Additional observations from a re-analysis of the deposited data

Results flagged for a closer look

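In each of the following, the difference between 2 zones changed with ischemia by edgeR's test of that change. For outer stripe against cortex, the log2 difference changed by -0.59 for Scnn1a, by -0.88 for Hsd11b2 and by -0.54 for Nedd4l. For inner medulla against cortex, it changed by 0.96 for Scnn1a, by -1.12 for Sgk1 and by -1.03 for Tsc22d3. The outer stripe changes were not called with DESeq2 or without either ischemic section. Once spots with 1000 CPM or more of urothelium, adipocyte, T cell and vascular smooth muscle genes were left out, the Sgk1 change became 0.72. Neither that change nor the inner medulla change of Tsc22d3 was then called. Both also lost their calls without ischemic section 1, and the inner medulla change of Scnn1a lost its call without ischemic section 2.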

How the results depend on the processing

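Over settings other than leaving out a section, 951 of 1150 log2 differences of members kept direction and side of the threshold, 59 lost and 48 gained a call in the same direction, and 92 turned sign, 12 of them called before or after. With a section left out these counts were 326 of 416, 33, 26 and 31, with 1 of the last called, Hsd11b2 in the inner medulla (range -1.44 to 0.27). The cause was not tested in any of these. In whole sections Scnn1g was called without a filter on low counts (-0.35), and on library totals alone the values were -0.21 for Scnn1a, -0.38 for Nr3c2, 0.38 for Nedd4l and -0.11 for Tsc22d3. Leaving out each section gave -0.68 to -0.012 for Scnn1g, -0.32 to -0.14 for Sgk1, 0.026 to 0.18 for Nedd4l, -0.85 to -0.43 for Nr3c2, -0.53 to -0.41 for Scnn1a and -0.40 to -0.33 for Tsc22d3.

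The labels do not say that a replicate number marks anything shared, and with 2 numbers the data do not settle it. The section 1 minus section 2 differences of the 2 conditions correlated at 0.148 across genes. With the replicate number as a block, Scnn1g was called lower in whole sections (-0.34), Nr3c2 was called in cortex (-0.78) and outer stripe (-0.82), and the genes called in collecting-duct-rich spots rose from 2916 to 4514.

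Without spots of 1000 CPM or more of other-tissue genes, Sgk1 turned to 0.45 in the inner medulla, 0.24 in collecting-duct-rich spots, -0.48 for normal inner medulla against cortex and 0.72 for its change, and the genes called fell from 4978 to 3196 in the inner medulla, from 5696 to 1356 for normal inner medulla against cortex and from 1845 to 1020 for its change. At 2000 CPM, Sgk1 was 0.046 in collecting-duct-rich spots and 0.80 in the pelvis, Tsc22d3 was 0.77 in the pelvis, and genes called were 2056 in the pelvis (3576 before) and 2530 for normal inner medulla against cortex. At 1000 CPM too few pelvis spots were left for a value, and the urothelium genes of these lists also set the pelvis. With zones set without neighbours, Scnn1b turned to -0.76 in the inner medulla, to 0.71 for normal inner medulla against cortex and to -0.69 for its change, Scnn1g and Hsd11b2 turned to 0.22 and 1.16 for normal inner medulla against cortex, and 2248 genes were called in the pelvis.

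Separate fits called 3077 genes in the inner medulla. Without the section as a block, genes called were 2134 (3236 before) for normal outer stripe against cortex, 1665 (3049) for its change and 1027 for the inner medulla change. In collecting-duct-rich spots DESeq2 called 1607 genes, the top 5% of spots 1703 and the top 20% 4960. With a section left out, genes called ranged from 2508 to 7090 in cortex, 4220 to 7511 in inner stripe, 2549 to 4598 in inner medulla, 1099 to 3735 in pelvis and 1251 to 3109 in collecting-duct-rich spots. They ranged from 2150 to 3574 for normal outer stripe against cortex, 1630 to 6611 in ischemic sections and 740 to 3848 for the change, and from 3429 to 7248 for ischemic inner medulla against cortex and 514 to 2342 for its change. The low counts of Nr3c2 limit what can be seen of it at this depth.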
